A study of Mus musculus with 54 samples.

Results

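Promoters that lie near each other in the folded genome were mapped in 230-238 cells, a mouse progenitor B cell line transformed with the Abelson virus. The contacts described here are those of a deposited H3K4me3 PLAC-seq list in which both anchors hold an accessible promoter. An anchor is a bin of 5 kb, and it was taken as a promoter bin when it overlapped by at least 1 bp a region that the authors' list of accessible regions of the same line annotates as promoter-TSS. Of 69898 listed contacts, 4612 met this rule (6.60%). They carried 137190 of the 1544429 read pairs counted over the list (8.88%).

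PLAC-seq joins DNA ends that lie close together in cross-linked nuclei and then enriches, with an antibody to H3K4me3, the joined fragments that carry this mark of active promoters. A contact between promoters can bring genes under shared enhancers or place them in a common transcription site, and a promoter can itself act on another promoter. Fli1 is a transcription factor of the ETS family, whose members bind sites built on the letters GGAA, and it acts in blood progenitors. Ikzf1 (Ikaros) is a zinc-finger factor needed for lymphoid development, and its sites also hold a GGAA core. Since the assay selects for H3K4me3 at the anchors, the frequency of a contact and the amount of the mark at its ends cannot be told apart.

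The contacts come from 1 list deposited for 2 PLAC-seq samples, and the accessible regions from 1 list for 2 ATAC-seq samples of the same line, which is a single line. Fli1 and Ikzf1 peaks were called in 1 ChIP-seq library each of wild-type (Wt) fetal liver pro-B cells of the C57BL6/J strain, not in the Abelson line. Marks and RNA polymerase II (PolII) were compared between Ebf1-KO and Wt, and accessibility between E2A-KO and Wt, in fetal liver pro-B cells of that strain, all grown on OP9 stroma with cytokines. Each group was 1 column or 1 list, so no test across replicates could be made. Intervals given below are 95% intervals for counting error or for a median over contacts, and they do not hold differences between cultures.

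The labelled cell type was checked against its markers. Of 12 progenitor B markers 10 had an accessible promoter, and 6 of these lay in promoter to promoter contacts, among them Cd79a, Ebf1, Igll1, Rag1 and Rag2. Blnk and Dntt had none. Accessible promoters were listed for 2 of 7 T-cell markers (Cd3g and Lat), 1 of 4 natural killer markers (Klrd1), 1 of 7 myeloid markers (Lyz2), 1 of 5 erythroid markers (Gata1) and 0 of 6 stromal markers.

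Of 7526 promoter regions among 65093 accessible regions, 7875 bins held at least part of one. Of these promoter bins 4471 (56.8%) had a contact with another promoter bin, 2245 had other contacts only and 1159 had none. The bins in promoter to promoter contacts named 4255 of the 6644 genes with an accessible promoter (64.0%), and 216 of them named more than 1 gene. In 24 contacts the same gene stood on both sides. Near the edge of the rule, 139 contacts rested on an overlap under 100 bp on a side, and 144 others missed it because the other bin lay within 100 bp of a promoter region.

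The letters before the transcription start are shown for 4 pairs on which the results turn. Srsf9 and Gatc are the pair with the highest contact count, Gimap6 and Gimap1 the same-family pair with the highest count, Ccni and Ccng2 a pair with Fli1 and Ikzf1 peaks in both bins, and Rag2 and Rag1 the recombination genes. Each line gives the 140 bases before the start, 5′ to 3′ on the gene's strand, from RefSeq on GRCm38.p6. Capitals mark GGAA or its complement TTCC. The stretches lie at chr5:115327037-115327176 (Srsf9, plus strand) and chr5:115341162-115341301 (Gatc, minus strand). Those of the GTPase genes lie at chr6:48708245-48708384 (Gimap6, minus) and chr6:48738907-48739046 (Gimap1, plus). The cyclin genes follow at chr5:93206496-93206635 (Ccni, minus) and chr5:93267433-93267572 (Ccng2, plus), and the recombination genes at chr2:101624572-101624711 (Rag2, plus) and chr2:101649533-101649672 (Rag1, minus).
Srsf9: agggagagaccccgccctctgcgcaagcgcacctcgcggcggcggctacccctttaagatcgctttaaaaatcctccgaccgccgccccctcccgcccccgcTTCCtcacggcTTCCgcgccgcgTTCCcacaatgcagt
Gatc: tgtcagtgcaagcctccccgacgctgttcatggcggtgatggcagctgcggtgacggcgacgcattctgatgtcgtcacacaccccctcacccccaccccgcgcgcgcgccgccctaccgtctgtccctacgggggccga
Gimap6: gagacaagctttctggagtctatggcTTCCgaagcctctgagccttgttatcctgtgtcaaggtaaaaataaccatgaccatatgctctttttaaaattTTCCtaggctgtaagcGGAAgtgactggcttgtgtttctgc
Gimap1: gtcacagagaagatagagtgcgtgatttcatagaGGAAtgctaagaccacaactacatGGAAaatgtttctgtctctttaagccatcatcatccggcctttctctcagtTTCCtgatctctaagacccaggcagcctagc
Ccni: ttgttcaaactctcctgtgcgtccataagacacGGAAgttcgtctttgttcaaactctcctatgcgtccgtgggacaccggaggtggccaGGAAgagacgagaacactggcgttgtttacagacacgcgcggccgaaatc
Ccng2: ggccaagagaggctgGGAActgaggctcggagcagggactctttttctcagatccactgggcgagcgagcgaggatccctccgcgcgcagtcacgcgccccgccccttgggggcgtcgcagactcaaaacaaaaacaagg
Rag2: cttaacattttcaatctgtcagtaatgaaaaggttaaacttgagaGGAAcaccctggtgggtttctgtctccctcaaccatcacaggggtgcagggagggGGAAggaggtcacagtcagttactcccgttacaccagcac
Rag1: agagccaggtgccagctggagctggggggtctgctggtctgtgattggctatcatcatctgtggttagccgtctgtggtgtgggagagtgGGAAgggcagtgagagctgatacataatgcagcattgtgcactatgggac
Fli1 peaks overlapped 7 of the 8 stretches, and the exception was Rag2, whose bin held a Fli1 peak (score 23.8) outside the stretch. The Gatc stretch held no GGAA on either strand, though a Fli1 peak with a score of 16.2 covered it. The highest Fli1 scores were 69.6 over Ccni, with 2 GGAA, and 48.6 and 46.7 over Gimap6 and Gimap1, with 3 each. Ikzf1 peaks covered Ccni (score 14.1) and Ccng2 (score 9.41) alone among the 8. A score is the value the authors' peak caller gave, and it serves here only to rank peaks within 1 list.

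Promoter to promoter contacts were mostly short. Their spans ran from 10 to 2585 kb with a median of 130 kb (125–135) and quartiles of 60.0 and 255 kb. By span, 950 contacts (20.6%) were under 50 kb, 882 (19.1%) from 50 to 100 kb, 1219 (26.4%) from 100 to 200 kb and 1173 (25.4%) from 200 to 500 kb. Another 289 (6.27%) reached 500 to 1000 kb, and 99 (2.15%) went beyond. Most of them passed over other promoters, since 1284 (27.8%) had no promoter bin between their anchors and 2533 (54.9%) had 1 to 4. A further 663 (14.4%) had 5 to 9 and 132 (2.86%) had 10 or more, up to 33.

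The contact count, the number of read pairs that joined both bins, had a median of 21 (20.0–22), quartiles of 13 and 36 and a range from 7 to 229. It was lower at longer spans, with a median of 55.0 under 50 kb, then 30.0, 20.0, 13 and 10.0, and 8 beyond 1000 kb. Contacts of a promoter bin with an accessible bin that held no promoter-TSS region numbered 16469, with a median span of 125 kb (125–130) and a median count of 19 (19–19). In the same bands of span their medians were 46, 25, 18, 12, 9 and 8. The median of promoter to promoter contacts was thus the higher in each band up to 1000 kb, by 1 read pair from 200 kb on, and level beyond it. The 15798 contacts of a promoter bin with a bin holding no accessible region had a median count of 16 (15–16), and the 33019 contacts without an accessible promoter had 15 (14.0–15). The median deposited q-value was 5.20e-04 for promoter to promoter contacts, against 0.00114 for contacts with another accessible bin and 0.00551 for those with a bin lacking accessible regions.

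**Figure D1:**
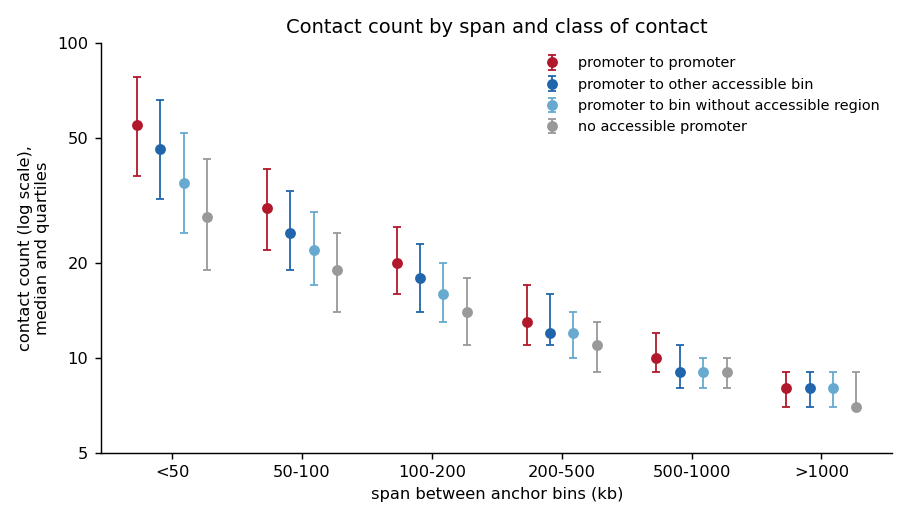
Contact count (read pairs per pair of bins, log scale) against the span between anchor bins in kb, for the 4 classes of contact. Points are medians over contacts and bars run from the lower to the upper quartile, without replicates. Promoter to promoter contacts had the highest median up to 1000 kb, 55.0 under 50 kb against 46 for contacts with another accessible bin.

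The class of other accessible bins was not free of promoters. Of 12847 accessible regions within 1 kb of a transcription start, 5321 were annotated as something else than promoter-TSS, 2938 of them as intron. In 4490 contacts (27.3% of the class) the other bin held such a region. Over all spans their median count was 21 (20.0–21), equal to that of promoter to promoter contacts, and the remaining 11979 had 19 (18–19). In the 6 bands of span their medians were 52, 28, 19, 13, 9 and 8. Those of promoter to promoter contacts were 55.0, 30.0, 20.0, 13, 10.0 and 8, so the equality did not hold in each band.

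Whether a pair of promoters was listed depended first on distance. The promoter bins formed 137466 pairs 10 to 2985 kb apart, the range of the list, and 4612 of them were listed (3.36%, exact binomial interval 3.26–3.45). The listed share was 25% under 50 kb, 19.8% from 50 to 100 kb, 15.2% from 100 to 200 kb and 6.02% from 200 to 500 kb. It was 1.11% from 500 to 1000 kb and 0.131% beyond. Pairs that share a bin or lie in the same neighbourhood are not independent, so these intervals are too narrow. Near contacts had also been merged in the list, and a pair merged into a near contact does not count as listed here. Of the 4612 contacts, 2405 were alone in their merged block.

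The contacts between different genes with the highest counts spanned 10 to 25 kb. The bins of Srsf9, which encodes a splicing factor, and Gatc, which encodes a subunit of a mitochondrial amidotransferase, shared 229 read pairs (exact Poisson interval 200–261) over 15 kb (chr5:115325001-115330000 and chr5:115340001-115345000). Hdhd3 and Pole3, a subunit of DNA polymerase epsilon, shared 224 (196–255). The bin of the arginine methyltransferase Prmt1 and Gm15545 shared 213 (185–244) with the bin of Bcl2l12 and Irf3, a factor of the interferon response. Ddit3, a stress-response factor, and the methionyl-tRNA synthetase gene Mars had 204 (177–234) over 20 kb, with the lowest q-value of these 10, 1.17e-36.

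The other pairs among the 10 were Pole2 with Klhdc1 (201 read pairs), talin (Tln1) with Rgp1 (195), and the ubiquitin ligase gene Syvn1 with Fau (192), which encodes a ribosomal protein. They ended with Slc37a4 and Trappc4 (190), Dynll1 and Srsf9 (181), and Dbp and Sphk2 (172). Their spans all lay under 50 kb, the band where each class of contact had its highest median. Of the 24 contacts with the same gene on both sides, that of Hnrnpf, which encodes an RNA-binding protein, had 222 (194–253) over 10 kb.

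The longest contacts had few reads. Mrpl13, a mitochondrial ribosomal protein gene, and Wdyhv1 lay 2585 kb apart on chromosome 15 with 7 read pairs (2.81–14.4) and a q-value of 0.0232. St7l and Rbm15, which encodes an RNA-binding protein, followed at 2470 kb with 9 (4.12–17.1). Gm13212 on chromosome 4 gave 3 of the 10 longest, with Miip (2280 kb, 11 read pairs), Zfp933 (2260 kb, 10) and Zfp984 (2220 kb, 17). The contact with Zfp984 had a q-value of 1.11e-11, the lowest of these 10, and a count interval of 9.90 to 27.2.

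The rest of the 10 joined Pfkp with Wdr37, Man1a with Tbc1d32, Gstcd with the centromere protein gene Cenpe, Pank1 with Btaf1, and Lockd with the bin of H2afj and Hist4h4, at 1880 to 2225 kb and with 7 to 9 read pairs. At such counts the intervals overlap one another, so no order of contact frequency among them could be read.

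Promoter bins had few listed partners each. Near contacts had been merged in the list, which can lower the number of partners, and the size of this effect was not tested. Of the 4471 bins, 2106 (47.1%) had 1 promoter partner, 1144 had 2 and 1221 had 3 or more, of which 316 had at least 5. Linked bins formed 925 separate groups, 434 of them a single pair. At the other end, 100 groups of at least 10 bins held 1826 bins, the largest with 69 and the next with 46. In 829 sets of 3 bins each was linked to both others.

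The highest number of partners was 9, in 6 bins. These included the bins of the RNA-processing factor Srrt (chr5:137305001-137310000, 372 read pairs over its promoter contacts) and of the arginine methyltransferase Prmt5 (chr14:54515001-54520000, 243). They also included the mitochondrial carrier gene Slc25a25 (chr2:32450001-32455000, 214), the vesicle-sorting gene Vps45 (chr3:96055001-96060000, 193), and Zbtb7a (chr10:81135001-81140000, 162), which encodes a repressor that acts in lymphoid fate choice. All 6 held a Fli1 peak, and Srrt alone held an Ikzf1 peak too. Among the bins with 8 partners, those of Calr, the calcium-binding chaperone calreticulin, and of Prmt1 with Gm15545 had the highest sums, 474 and 417.

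Chromosomes differed in how many such contacts they held. Chromosome 17 had 389 contacts on 463 promoter bins (0.840 per bin) and chromosome 10 had 324 on 409 (0.792), whereas chromosome 1 had 135 on 434 (0.311). On chromosome 17 they made up 11.1% of all listed contacts, and on chromosome 1 they made up 3.38%.

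B-lineage genes were described by list. Of the 15 B-lineage factors with an accessible promoter 7 were in promoter to promoter contacts (Ebf1, Ikzf3, Irf8, Lef1, Myb, Pou2f2 and Tcf3), a share of 46.7% against 64.0% of all genes. Of 12 genes in signalling from the pre-B-cell receptor, 7 were, Btk, Cd72, Cd79a, Dok3, Igll1 and Syk among them, of 5 recombination genes 3 (Rag1, Rag2 and Xrcc6), and of 9 genes of cell cycle and survival 7. The promoters of Foxo1, Pax5, Pou2af1, Vpreb1 and Cd79b were accessible but had no listed promoter partner. The lists are short, and none of these shares was tested.

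Tcf3, which encodes the E2A proteins, had most partners among the factors, 7, and its bin (chr10:80430001-80435000) held a Fli1 peak with a score of 73.4 and an Ikzf1 peak with 10.2. Its counts ranged from 13 with Izumo4 over 270 kb to 38 with 2310011J03Rik over 110 kb. Pou2f2, the gene of the octamer-binding factor Oct-2, shared 38 read pairs with the bin of Dedd2 and Zfp526, 34 with the kinase gene Gsk3a and 18 with Lipe. Irf8, an interferon regulatory factor of B and myeloid cells, shared 43 with the bin of Cox4i1 and Emc8 over 70 kb and 9 with Fbxo31 over 840 kb.

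Ebf1, the factor that specifies the B lineage, had 1 partner, the phosphatase gene Ublcp1 at 145 kb (25 read pairs, 16.2–36.9, q-value 0.00847). Ikzf3 (Aiolos) had Stard3 at 190 kb (23 read pairs). Lef1, a nuclear partner of Wnt signalling active in pro-B cells, had Ostc at 400 kb (18 read pairs) and Enpep at 1780 kb (9 read pairs, 4.12–17.1, q-value 0.00193).

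Among genes of the receptor pathway, Btk, the tyrosine kinase downstream of the receptor, shared 41 read pairs with Timm8a1 and 19 with Armcx4. The inhibitory adaptor gene Dok3 had 5 partner bins, with 28 read pairs to Tmed9 as its highest. Syk, the kinase that starts receptor signalling, reached Gadd45g at 735 kb (19 read pairs, q-value 6.93e-11) and Cks2 at 935 kb (11), with no promoter bin between it and Gadd45g. Of the receptor chains themselves, the surrogate light chain gene Igll1 shared 11 read pairs with each of Dnm1l (505 kb) and Ppil2 (250 kb). Cd79a shared 9 with Cic (385 kb). The median of promoter to promoter contacts was 13 (quartiles 11 and 17) from 200 to 500 kb and 10.0 from 500 to 1000 kb.

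Rag2 and Rag1, which together encode the enzyme that cuts antigen receptor genes, were joined at 25 kb (chr2:101620001-101625000 and chr2:101645001-101650000) by 21 read pairs (13–32.1, q-value 0.0259). That count lay below the lower quartile of 38.0 for promoter to promoter contacts under 50 kb. Xrcc6, a DNA repair gene, had 3 partner bins with 18 to 31 read pairs. Among genes of cell cycle and survival, the promoter of Bcl6, a repressor of germinal centre cells, shared 39 read pairs (27.7–53.3, q-value 2.97e-36) with A230028O05Rik at 1070 kb. This was the highest count among the 99 contacts beyond 1000 kb, whose median was 8. Ccnd2, a D-type cyclin, shared 36 with Parp11 at 295 kb, and E2f2 shared 42 with the ribosomal protein gene Rpl11 at 120 kb.

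Housekeeping families were taken by the first letters of the symbol, which also takes in relatives such as Psmc3ip, a recombination factor counted with the proteasome genes. Of 56 ribosomal protein genes with an accessible promoter 48 (85.7%) were in promoter to promoter contacts, as were 21 of 26 proteasome genes (80.8%), 25 of 35 mitochondrial ribosomal protein genes (71.4%) and 35 of 50 respiratory chain genes (70.0%). The share was 6 of 8 for tRNA synthetases, 8 of 12 for small nucleolar RNAs, and 69 of 109 (63.3%) for solute carriers. Rps2 had 10 contacts over its bins, with Tbl3 highest at 82 read pairs over 10 kb. The shares are set beside 64.0% of all genes as a description and were not tested.

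Of the 4612 contacts, 94 (2.04%, 1.65–2.49) joined different genes whose symbols share a stem of at least 3 letters before the first digit. Such pairs are called same-family here by spelling alone. Shared letters do not show that the genes are related, as for Slc7a6 with Slc7a6os, Zfp652os with Zfp652, and Rag2 with Rag1. Their median span was 105 kb (70.0–140) and their median count 22.5 (20.0–25), against 130 kb and 21 in the 4494 contacts of other gene pairs. The stem Zfp, that of zinc-finger genes and of Zfp652os, gave 59 of the 94. Of these 24 were on chromosome 17, 18 on chromosome 7 and 8 on chromosome 13. Histone genes gave 8. The guanylate-binding (Gbp), Lrrc, Rab and Slc stems gave 2 each, and 19 other stems gave 1 each. Zinc-finger and histone genes have near-identical copies, so the assignment of their reads is uncertain.

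The highest count of a same-family pair was 132 (110–157), between Gimap6 and Gimap1 at 30 kb, GTPases that act in lymphocyte survival (q-value 8.97e-23). The adhesion molecule genes Icam1 and Icam5 had 127 (106–151) at 15 kb. The histone genes Hist2h2aa2 and Hist2h4 had 117 (96.8–140) at 15 kb, and Hist2h2ab with Hist2h2be had 69 with Hist2h2bb at 45 kb. Zfp553 with Zfp771 had 90, Zfp52 with Zfp948 88, Zfp51 with Zfp53 69, and Zfp652os with Zfp652 64. The kelch-domain genes Klhdc1 and Klhdc2 (85), and Slc7a6 and Slc7a6os (84), completed the 10.

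Long contacts ran between both ends of the histone cluster on chromosome 13. Hist1h2bk and Hist1h2be were joined over 1550 kb by 9 read pairs (4.12–17.1). The bin of Hist1h2ag and Hist1h2bj reached Hist1h3g over 1495 kb with 10 and Hist1h4f over 1510 kb with 7. The other 3 same-family contacts of the cluster lay within an end, with 40 for Hist1h4j and the bin of Hist1h2ak and Hist1h2bn at 15 kb, 35 for Hist1h2be and Hist1h2bc at 60 kb, and 10 (4.80–18.4) for the bin of Hist1h3a and Hist1h4a with Hist1h2ba at 170 kb.

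The largest set of linked zinc-finger bins on chromosome 17 lay at chr17:21380001-22365000. Its 11 promoter bins named 12 genes, and 20 of the 55 pairs of bins were listed as same-family contacts. The bins were taken because such contacts link them, so this share is partly set by that choice. The contacts spanned 30 to 825 kb with 9 to 88 read pairs. The 55 include the pair of adjacent Zfp52 bins, which is closer than the 10 kb minimum of the list and could not be listed. Zfp53, Zfp983 and the larger-coordinate bin of Zfp52 had 6 such contacts each, and the bin of Zfp942 and Zfp943 had 5. The last was linked to Zfp229 at 230 kb by 31 read pairs and to Zfp53 at 475 kb by 12.

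**Figure D2:**
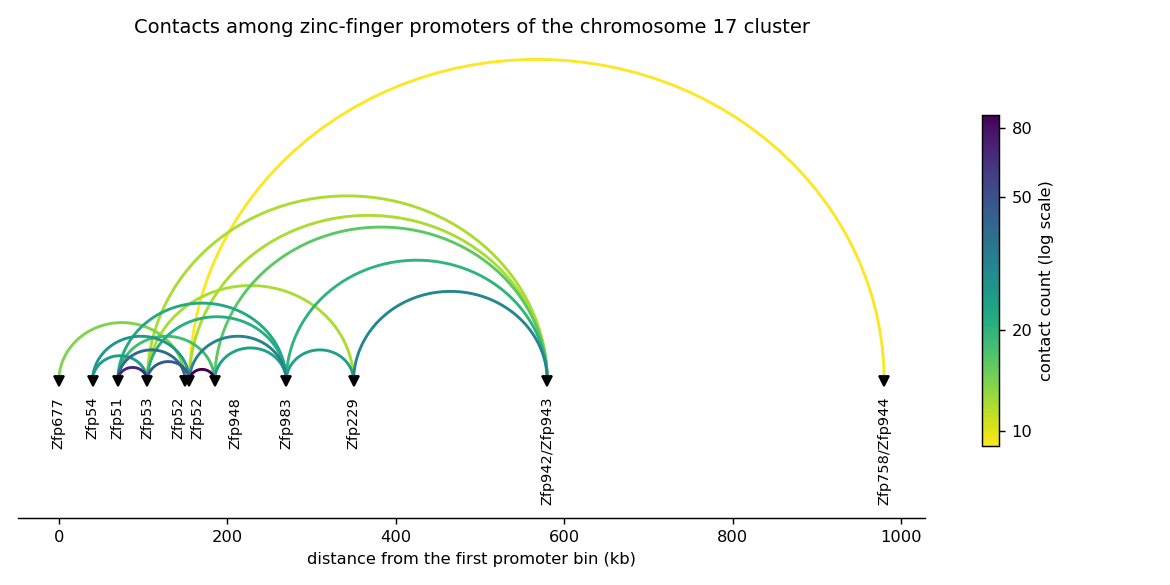
Same-family contacts among zinc-finger promoters of a cluster on chromosome 17, with distance from the first promoter bin in kb on the x axis. Triangles are promoter bins, arcs are listed contacts, arc height scales with span and colour gives the contact count on a log scale. Counts run from 9 on the longest arc to 88 between Zfp52 and Zfp948.

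Same-stem pairs had a lower listed share than other pairs under 50 kb and a higher one beyond 1000 kb, with intervals that did not overlap, and in the bands between them the intervals overlapped. Over all distances 94 of 1204 same-stem pairs of bins were listed (7.81%, 6.35–9.47), against 4494 of 136131 other gene pairs (3.30%, 3.21–3.40). Under 50 kb the shares were 15.7% (10.6–22) of same-stem pairs and 25.5% (24.1–27) of others. From 50 to 100 kb they were 15.4% (9.38–23.2) and 19.9% (18.8–21.2), and from 100 to 200 kb 12.9% (8.29–18.9) and 15.2% (14.4–16). From 200 to 500 kb they were 9.26% (5.75–13.9) and 5.97% (5.64–6.32), and from 500 to 1000 kb 2.68% (0.556–7.63) and 1.10% (0.976–1.23). Beyond 1000 kb they were 0.959% (0.262–2.44) and 0.127% (0.102–0.155), where 4 same-stem contacts were listed. Those 4 were the long histone contacts of chromosome 13, with 7 to 10 read pairs, and Zfp579 with Zfp444 (1175 kb, 8 read pairs). The histone contacts lie in 1 cluster and in part share a bin. Such pairs are not independent, so the intervals are too narrow.

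Fli1 peaks lay in 67.9% of all promoter bins, and 63393 of the 137466 possible pairs of promoter bins held one in both. Of the promoter to promoter contacts, 2728 (59.2%, 57.7–60.6) held a Fli1 peak in both bins, 1628 (35.3%) in 1 bin and 256 (5.55%) in no bin. How far the share with both bins follows from the share of single bins was not tested. In contacts of a promoter with another accessible bin the share with both was 41.0% (40.3–41.8), in contacts with a bin lacking accessible regions 2.92% (2.66–3.19), and in contacts without an accessible promoter 15.2% (14.8–15.6). Where the other accessible bin lay within 1 kb of a start the share was 60.9% (59.5–62.3), and elsewhere 33.5% (32.7–34.4). The interval of promoter to promoter contacts thus overlapped that of contacts whose other bin was close to a start, and lay above that of the remaining ones.

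Ikzf1 peaks were rarer, in 19.8% of all promoter bins and in both bins of 5946 of the 137466 possible pairs. They lay in both bins of 316 promoter to promoter contacts (6.85%, 6.14–7.62) and in 1 bin of 1773 (38.4%). In contacts with another accessible bin both bins held one in 4.40% (4.09–4.73), which was 5.79% (5.13–6.51) where that bin lay within 1 kb of a start and 3.88% (3.54–4.24) elsewhere. The list of Ikzf1 holds 5741 peaks and that of Fli1 27261, so the shares of the factors cannot be ranked against each other. Both factors had peaks in both bins in 267 promoter to promoter contacts (5.79%), against 596 contacts with another accessible bin (3.62%).

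**Figure D3:**
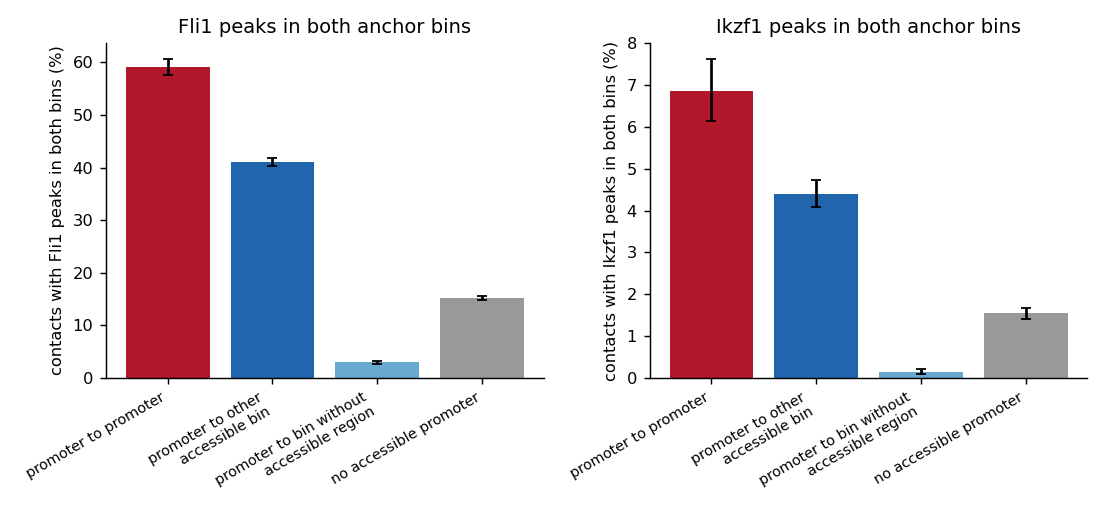
Share of contacts (%) in which both anchor bins held a peak of Fli1 or of Ikzf1, for the 4 classes of contact, with exact binomial 95% intervals as error bars. Promoter to promoter contacts had the highest shares among the 4 classes, 59.2% for Fli1 and 6.85% for Ikzf1.

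Across spans the Fli1 share in promoter to promoter contacts was 54.9% under 50 kb, 60.7% from 50 to 100 kb, 58.7% from 100 to 200 kb, 60.0% from 200 to 500 kb, 62.6% from 500 to 1000 kb and 70.7% (60.7–79.4) beyond. In contacts with another accessible bin it stayed between 40.1% and 42.7% in the 6 bands. For Ikzf1 the promoter to promoter share was 3.03% (0.629–8.60) beyond 1000 kb, which is 3 contacts, and 6.15% to 7.60% in the other bands.

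Seen from all promoter pairs, those with Fli1 peaks in both bins had the highest listed share in each band of span. From 100 to 200 kb 19.8% of pairs with both, 12.3% of pairs with 1 and 7.36% of pairs with none were listed, and from 200 to 500 kb 8.08%, 4.67% and 3.11%. Over all spans the shares were 4.30% (4.15–4.46), 2.73% (2.60–2.86) and 1.78% (1.57–2.01). Pairs of bins with 1 accessible region each kept the order, at 3.55% (3.28–3.82), 2.16% (1.96–2.38) and 1.52% (1.20–1.89). For Ikzf1 the overall shares were 5.31% (4.76–5.92) with both, 3.96% (3.78–4.14) with 1 and 2.91% (2.80–3.02) with none, and beyond 1000 kb they did not keep this order, at 0.0982%, 0.133% and 0.132%.

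**Figure D4:**
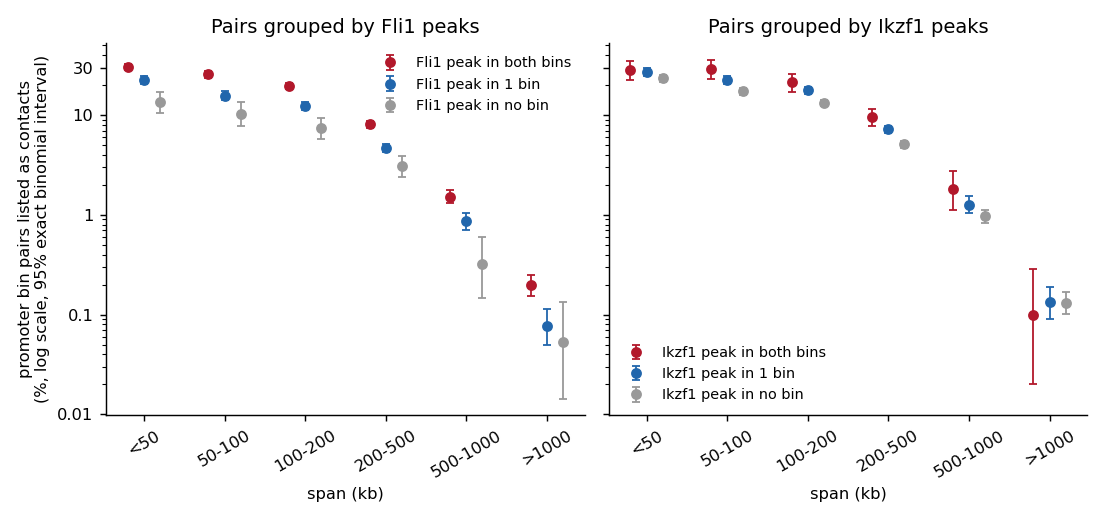
Share of promoter bin pairs listed as contacts (%, log scale) against span in kb, with pairs grouped by peaks of Fli1 (left) or Ikzf1 (right) in both, 1 or no bin. Bars are exact binomial 95% intervals. The Fli1 groups keep their order in all 6 bands, for example 30.5%, 22.4% and 13.6% under 50 kb, and the Ikzf1 groups keep it up to 1000 kb.

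Peaks were also counted per promoter bin. Fli1 peaks lay in 74.3% (72.9–75.5) of bins in promoter to promoter contacts, 68.7% (66.7–70.6) of promoter bins in other contacts only and 41.9% (39.1–44.8) of promoter bins in no contact. The median score of these peaks was 25.7, 23.3 and 20.0. Ikzf1 peaks lay in 23.4% (22.1–24.6), 18.7% (17.1–20.3) and 8.02% (6.53–9.74) of the same bins. With 1, 2, 3 or 4, and at least 5 promoter partners the Fli1 share was 70.0%, 75.3%, 81.2% and 78.8%, and the Ikzf1 share 20.5%, 22.4%, 27.7% and 33.9%. The mean number of accessible regions per bin was 1.67, 1.65, 1.87 and 2.12 in the same bins, and its part in these shares was not tested.

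The pairs with both factors in both bins and the highest counts included C920021L13Rik with Aph1a (157 read pairs, 133–184), a gamma-secretase subunit gene, and with Ciart (116), a circadian repressor gene. The cyclin genes Ccni and Ccng2 had 150 (127–176) over 60 kb with a q-value of 8.53e-46. The median count from 50 to 100 kb was 30.0. Their Fli1 scores were 69.6 and 33.8, and their Ikzf1 scores 14.1 and 9.41. The kinase gene Oxsr1 shared 120 with the bin of Acaa1a and Myd88, an adaptor of Toll-like receptors, and Hist2h2aa2 with Hist2h4 had 117. The others were BC017643 with Narf (108), Kctd11 with Eif5a (105), Vrk3 with Nup62 (93), Prpf3 with C920021L13Rik (91), and the deacetylase gene Hdac1 with the lymphocyte kinase gene Lck (91).

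RefSeq starts on GRCm38.p6 were matched to 6075 of the 7526 promoter regions (80.7%), and to 3959 of the 4781 regions in bins of promoter to promoter contacts (82.8%). In windows from 250 bases before to 50 after the start, the 3659 distinct RefSeq promoters behind these regions, some of which share a start, had a median GC content of 61.7% and a median of 23 CpG, against 62.7% and 23 for 1417 accessible promoters in other contacts only. The 566 in no contact had 56.0% and 11, and all 32851 promoters of the RefSeq table had 52.7% and 7. Promoters in contacts of either kind were thus richer in CpG than those in none.

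Motifs were searched on both strands, and the short core GGAA is part of both longer motifs that follow. The ETS core with its usual flank, CCGGAA, stood in 33.8% of windows in promoter to promoter contacts, 29.9% in other contacts only, 16.1% in no contact and 14.9% of all promoters. GGAA itself stood in 95.7%, 94.4%, 97.0% and 96.0%, so nearly every window held it. TGGGAA, an Ikaros site, stood in 22.1%, 21.5%, 28.4% and 25.6%, CCAAT in 40.0%, 39.8%, 39.8% and 37.4%, and GCATGC in 10.0%, 9.32%, 9.72% and 7.93%. Within promoter to promoter contacts, CCGGAA stood in 42.3% of the 2452 windows under a Fli1 peak and 16.4% of the 1207 without one. For TGGGAA the values were 27.4% of 533 windows under an Ikzf1 peak and 21.2% of 3126 without. GC content differed between the groups of promoters, and its part in these shares was not tested. A match is a description of the letters and not of binding.

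For 3081 contacts the strands of both genes were known. The genes ran on the same strand in 51.5% (49.8–53.3), toward each other in 23% (21.5–24.5) and apart in 25.4% (23.9–27), against 50.1%, 25.2% and 24.7% of possible pairs. Within each of the 6 bands of span the share of possible pairs lay inside the interval of the contacts.

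The comparison of Ebf1-KO with Wt fetal liver pro-B cells asked how chromatin at these promoters differs without Ebf1. The deposited mark tables hold 582 promoter regions near genes that the authors chose as enriched in Wt. All were open in Wt, and 70 of them were not open in Ebf1-KO. The direction is thus partly set by these choices. Of the 582 regions 316, of 277 genes, lay in bins of promoter to promoter contacts, and 34 of these were not open in Ebf1-KO. Values are tags per region scaled to 10000000 tags per library, and ratios are log2 of (Ebf1-KO + 1)/(Wt + 1). The columns held 196071042 tags for H3K4me3 in Ebf1-KO against 76632191 in Wt, and 24557525 to 77280688 for the other marks and PolII. Those of H3K4me3 and H3K27me3 pool replicate samples, whereas H3K4me2, H3K27ac and PolII had 1 library per group. Of the 316 promoters, 46 (14.6%) had H3K4me3 at least 2-fold lower in Ebf1-KO, against 16.5% of all table promoters, and 42 (13.3%) at least 2-fold higher, against 13.9%. The median ratio was 0.43 (0.37–0.55), against 0.40 over all. The 316 include the promoter of Eif2s3y on the Y chromosome. It had 0 tags in Ebf1-KO against 38.1 in Wt for H3K4me3, 0 against 7.53 for H3K4me2 and 0 against 26.9 for PolII. For H3K27ac it had 31.8 in Ebf1-KO against 25.9 in Wt. At this promoter a difference in the sex of the cells and one in Ebf1 cannot be told apart.

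PolII was at least 2-fold lower at 93 (29.4%, against 33.2%) and higher at 15 (4.75%, against 4.64%), with a median ratio of -0.40 (-0.52 to -0.26) against -0.46. H3K27ac, a mark of active regions, was lower at 83 (26.3%, against 27.3%) and higher at 1 (0.316%, against 0.344%), with a median of -0.46 against -0.52. H3K4me2 was lower at 35 (11.1%, against 13.9%) and higher at 26 (8.23%, against 9.62%), with a median of 0.42 against 0.40. H3K27me3, the mark of Polycomb repression, was higher at 58 (18.4%, against 24.1%) and lower at 5 (1.58%, against 1.89%), with a median of 0.03 against 0.14. The median H3K27me3 value was 0.520 tags in Ebf1-KO and 0.640 in Wt, under the 1 tag added to each value. In either group 25 of the 316 promoters reached 20 tags, so most H3K27me3 ratios rest on few tags. Each share was near that of the whole table, which includes these 316 promoters, or below it. Among the other 266 promoters of the table, 30.8% were higher in H3K27me3 and 37.6% lower in PolII. Only the share higher in PolII (4.51%) was smaller there than among the 316.

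Accessibility in E2A-KO against Wt cells was at least 2-fold lower at 107 of 344 such promoters (31.1%, against 36.8% of the 653 in its table). It was higher at 0 (0%, against 0.153%). That table, too, holds regions near genes that the authors chose as enriched in Wt, so the direction is partly set by that choice. Of the other 309 promoters of that table, 43.0% were lower and 0.324% higher. The median ratio was -0.78 (-0.83 to -0.72), against -0.82 over all 653. The columns held 85771440 tags in E2A-KO and 153781074 in Wt, and the Wt column is named as a pool of more libraries than the Wt samples labelled for it.

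Of 9 table promoters of 6 B-lineage factors in the contacts, H3K4me3 was at least 2-fold lower in Ebf1-KO at 3 (of Lef1 and Ikzf3) and higher at 2 (of Ebf1 and Tcf3), and PolII was lower at 4 and higher at 2. Of 5 table promoters of 4 genes in receptor signalling, H3K4me3 was lower at 3 (of Cd79a and Igll1) and higher at 1 (Btk, 84.6 in Ebf1-KO against 40.3 in Wt), and PolII was lower at 4 and higher at 0. Recombination genes had 1, that of Rag1. These counts are small and are a description. The Cd79a promoter (chr7:24896982-24897767) had 3.01 tags of H3K4me3 in Ebf1-KO against 94.0 in Wt (log2 -4.57), and 3.76 against 63.2 of PolII. The Igll1 promoter (chr16:16863729-16864437) had 3.76 tags of PolII in Ebf1-KO against 141 in Wt (log2 -4.90). At Rag1 (chr2:101649360-101649875), PolII was 6.16 in Ebf1-KO against 26.5 in Wt, whereas H3K4me3 was 39.6 against 51.3 (log2 -0.36). Ebf1 itself had 126 tags of H3K4me3 at its promoter in Ebf1-KO against 59.9 in Wt (log2 1.06), and Tcf3 had 78.4 against 30.8 at one promoter (chr10:80433524-80433859, log2 1.32) and 18.7 against 13.8 at another (log2 0.41). Irf8 (log2 0.19) and both promoters of Pou2f2 (log2 0.40 and 0.13) differed by less than 2-fold in H3K4me3. In E2A-KO, accessibility was 13.5 at Lef1 against 45.6 in Wt, and 2.68 at Gimap6 against 10.5.

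In 30 contacts both sides held a table promoter, in 504 contacts 1 side did and in 4078 neither. Where a bin held several, the one with the most H3K4me3 in Wt was taken. Both promoters were at least 2-fold lower in Ebf1-KO in 3 of the 30 for H3K4me3, 1 for H3K4me2, 2 for H3K27ac and 4 for PolII, and both were at least 2-fold higher in 1 for H3K4me3 and 1 for PolII. In 4 contacts for H3K4me3 and 7 for PolII 1 promoter was lower and the other was not. Of all 582 table promoters, 16.5% were lower in H3K4me3, 13.9% in H3K4me2, 27.3% in H3K27ac and 33.2% in PolII. The shares higher were 13.9% for H3K4me3 and 4.64% for PolII. How far the counts of pairs follow from these shares of single promoters was not tested. The pairs are few and share promoters, so no test was made.

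Several of the lower pairs met at Enpep, which encodes a surface aminopeptidase of early B cells (the antigen BP-1), and which was singled out after its values were seen. Its promoter (chr3:129332618-129333006) had 1.68 tags of H3K4me3 in Ebf1-KO against 37.6 in Wt (log2 -3.85). At Lef1 (chr3:131111958-131112852), 1780 kb away, H3K4me3 was 31.1 in Ebf1-KO against 190 in Wt and PolII 0.680 against 17.6, while H3K27me3 was 31.4 against 1.29 (log2 3.82) and H3K4me2 was 53.0 against 16.0 (log2 1.66). Pla2g12a, a phospholipase gene at 550 kb, had 8.52 tags of H3K4me3 in Ebf1-KO against 33.8 in Wt and 6.84 of PolII against 55.8. The other partners of Enpep differed, since the fatty acid elongase gene Elovl6 (200 kb, 52 read pairs) had 107 tags of H3K4me3 in Ebf1-KO against 60.0 in Wt, and Ap1ar (1495 kb, 7 read pairs) had 190 against 117.

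Of the remaining pairs, Ulbp1 and Zc3h12d (360 kb, 10 read pairs) were both lower, with 41.0 tags of H3K4me3 in Ebf1-KO against 86.3 in Wt at Ulbp1, and 3.57 against 17.4 at Zc3h12d, which encodes a regulator of messenger RNA decay in lymphocytes. C1galt1 and Glcci1 were both lower in PolII, with 9.92 in Ebf1-KO against 25.8 in Wt and 3.76 against 12.9. The pair higher in H3K4me3 was of histone genes, with 122 tags of H3K4me3 in Ebf1-KO against 59.6 in Wt at Hist1h4j and 155 against 68.5 at Hist1h2ak. In the contact of Ccni and Ccng2, the table promoter in the Ccni bin is that of 2010109A12Rik, with 58.4 tags of H3K4me3 in Ebf1-KO against 43.2 in Wt, and Ccng2 had 66.0 against 49.3, both under 2-fold.

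**Figure D5:**
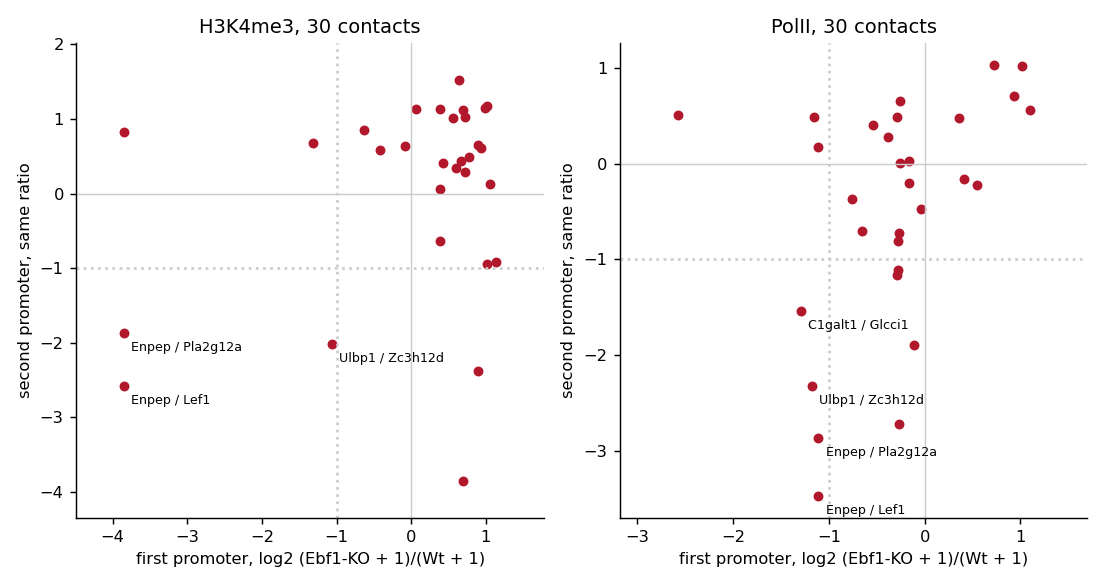
Log2 ratio of Ebf1-KO over Wt at both promoters of the 30 contacts with a table promoter on each side, for H3K4me3 (left) and PolII (right), 1 point per contact. The first promoter is the one with the lower coordinate, and dotted lines mark a 2-fold decrease. The 3 labelled pairs for H3K4me3 and 4 for PolII lie below it on both axes, and Enpep stands in 2 of them in each panel.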

How the data were processed

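The list of contacts was deposited once for both PLAC-seq samples. Its contact counts are read pairs joining 2 bins of 5 kb, and its q-value, at most 0.05, is the bias-corrected one, per the file headers. Near contacts had been merged, and the authors' summed count of each merged block was not used in any comparison. The build is mm10. The submitters' processing notes list, with no role given, Trim Galore (0.6.4), Bowtie2 (2.3.5), HiC-Pro (2.11.1), SAMtools (1.9), HOMER (4.10) and deepTools (3.3.1). Peaks carry a score, and accessible regions an annotation with the distance to a start, both as deposited by the authors. The signal in the mark and accessibility tables, per the file headers, counts tags in a region at 10000000 tags for each library, with no division by length. The accessibility table also has 2 columns of samples outside the labels given, which were left alone.

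Contacts were classed by an overlap of at least 1 bp. The software was SciPy 1.17.1, pandas 2.3.3, numpy 2.4.6, networkx 3.6.1 and matplotlib 3.10.9 under Python 3.11.15. The classing was tested on simulated data, where 400 of 400 contacts were put in the right class. Of 670 promoter regions with a blank gene name, 669 were filled through their transcript accession. Possible pairs are all pairs of promoter bins of a chromosome within the spans of the list. Shares carry exact (Clopper-Pearson) intervals, counts exact Poisson intervals and medians order-statistic intervals. Ratios use a pseudocount of 1 tag. The rule for named contacts took the 10 with the highest count, the longest span, the highest count among same-family pairs and the highest count among pairs with both factors in both bins. It added the bins with most partners and, per gene list, up to 6 genes with most contacts. Cell type markers could be named too, and Enpep, Hnrnpf and the pairs with marks on both sides were chosen after their values were seen. The members, lists and comparisons were chosen with earlier results of these data known. Some results for single genes are not reported here.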

Additional observations from a re-analysis of the deposited data

How the results depend on the processing

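No paired analysis was possible because each group was 1 pooled list or column, and for the same reason no replicate could be left out. Of 72 alternatives, 45 stayed within the interval of the reported value, or within 1.5 times of a count, 26 moved further and 1 changed sign. A q-value of at most 0.01 gave a median span of 115 kb and a median count of 25, and counts of at least 10 gave 118 kb and 23. Taking accessible regions within 1 kb of a start gave 10197 contacts and 236 same-family pairs, with 60.2% Fli1 and 6.24% Ikzf1 in both bins. With the region's centre in the bin the Fli1 share was 66.3% and the Ikzf1 share 7.72%, and with peaks over the promoter region itself 55.1% and 5.64%. Peak centres gave 53.9% for Fli1, and peaks scored at or above their median gave 42.5% and 2.71%. Stems of at least 4 letters left 23 same-family pairs, since stems of 3 letters such as Zfp, Gbp, Rab and Slc fall out. The median count of promoter to promoter contacts minus that of contacts with another accessible bin was 2, and 9, 5 and 0 under 50, from 50 to 100 and beyond 1000 kb. The Fli1 difference of 18.1 points was 12.3 under 50 kb, 19.9 from 200 to 500 kb, 21.5 from 500 to 1000 kb and 28.3 beyond. The Ikzf1 difference of 2.45 points turned to -1.88 beyond 1000 kb, where 3 of 99 contacts carry it. The cause was not tested. Leaving out other bins within 1 kb of a start, chosen after seeing the data as was the use of deposited gene names only, gave a Fli1 difference of 25.6. Among marks, H3K27ac had a median ratio of -0.35 with a pseudocount of 5 tags and -0.36 with a larger value of at least 20 tags. H3K27me3 had 2.37 over the 25 promoters with at least 20 tags in either group, of which 20 passed only through Ebf1-KO, so that the filter itself sets this value, and accessibility had -0.64 with a pseudocount of 5 tags. The 10 longest contacts rest on 7 to 17 read pairs each, which limits any order among them.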
